A study of Mus musculus with 96 samples.

Results

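miR-322, miR-503, miR-351, miR-542 and miR-450a are neighbouring miRNAs of one cluster on the mouse X chromosome. The 8 mature sequences described here are mmu-miR-322-5p, mmu-miR-322-3p, mmu-miR-503-5p, mmu-miR-503-3p, mmu-miR-351-5p, mmu-miR-542-3p, mmu-miR-542-5p and mmu-miR-450a-5p, where mmu stands for mouse and is left out below. They were chosen by name from the 1978 mature miRNAs listed in every table, and all 8 were present. Their counts were compared across hematopoietic cells (HCs), fibroblasts (FBs), endothelial cells (ECs) and cardiomyocytes (CMs) of male C57Bl/6J mice aged 12 to 14 weeks. Hearts were taken from unoperated mice (D0) and at D1, D3, D7, D14 and D28 after acute myocardial infarction (MI), in which the left anterior descending coronary artery was ligated for good. CMs were obtained by centrifugation, HCs with beads against CD45, ECs with beads against CD144 and FBs by a short plating step, so the groups are enriched fractions and not pure cell types. Each of the 24 groups of cell type and day held 4 small RNA libraries (96 in all), each a pool of RNA of 3 mice, or of 2 if one was lacking. The D0 mice were not sham-operated, so ligation and surgery cannot be told apart in any comparison with D0. Total counts on mature miRNAs per library ran from 3327351 to 24279105 for CMs, 2217588 to 65588543 for FBs, 525651 to 29037628 for ECs and 18286 to 29504666 for HCs. HC D0 replicate 3, with 18286 counts, was the only library under 100000 and held between 0 and 5 counts of each member. It was left out of every ratio below, and its level of miR-503-5p, miR-503-3p and miR-542-5p has an upper limit of 164 CPM at 0 counts. Counts of calls without it are given for HCs and for FBs against HCs, with the calls that were lost. The marker miRNAs of the isolated cell type were highest in their own fraction for 5 of 5 CM, 2 of 2 EC, 3 of 3 FB and 3 of 4 HC markers. Libraries were prepared in batches by cell type, so cell type and batch cannot be told apart, and only FBs and HCs had the same RNA input and number of PCR cycles. By the study's methods, the fractions of all cell types at a day came from one set of animals, so libraries of different cell types at a day are not independent, whereas fits across cell types treat all 96 as independent. The tests measure the spread between these pools. In such bulk samples, fewer cells of a type and less RNA per cell cannot be told apart.

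A miRNA hairpin is cut into a duplex of a 5p and a 3p arm, and either arm can be loaded into an Argonaute protein, where bases 2 to 8, the seed, pair with target mRNAs. miRNAs of a cluster are often transcribed together, but the amount of each mature arm also depends on processing and on how long the arm lasts. miR-322-5p carries the seed of the miR-15/16 family, which represses cyclins and other drivers of the cell cycle, and miR-322 and miR-503 are known for promoting cell cycle exit in differentiating muscle. miR-351-5p carries the seed of miR-125, a family conserved far beyond vertebrates.

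The mature sequences are printed below in RNA letters with the seed in capitals, because the seed decides which members can share targets. They were taken from RefSeq (GRCm38.p6), where all 8 members were matched by name and had the length listed in the deposited tables. miR-16-5p and miR-125b-5p are added as the best known relatives by seed.
miR-322-5p: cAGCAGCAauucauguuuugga
miR-16-5p: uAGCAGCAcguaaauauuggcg
miR-503-5p: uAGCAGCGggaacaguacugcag
miR-351-5p: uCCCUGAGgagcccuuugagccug
miR-125b-5p: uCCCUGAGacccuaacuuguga
miR-322-3p: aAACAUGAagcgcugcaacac
miR-503-3p: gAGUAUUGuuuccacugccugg
miR-542-3p: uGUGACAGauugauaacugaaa
miR-542-5p: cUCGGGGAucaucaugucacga
miR-450a-5p: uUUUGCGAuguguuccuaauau

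The seeds of miR-322-5p and miR-503-5p differ by one substitution, A8G, with positions counted from the 5′ end of the mature sequence. miR-322-5p shares its seed with 9 other listed mouse miRNAs, of which 7 had counts, and miR-351-5p with 4, of which 3 had counts. The seed of miR-542-5p occurs in 1 other miRNA, and the remaining 5 members share theirs with none. The hairpins of miR-322 and miR-503 are shown with both arms in capitals, because the results turn on the balance between these arms.
Mir322: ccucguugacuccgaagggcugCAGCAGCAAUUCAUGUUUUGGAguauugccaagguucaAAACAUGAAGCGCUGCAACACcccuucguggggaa
Mir503: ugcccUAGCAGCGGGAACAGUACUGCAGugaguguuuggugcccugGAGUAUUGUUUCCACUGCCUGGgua

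All 7 hairpins of the cluster lie on the minus strand of chromosome X within 6353 bases. In the direction of transcription, Mir322 (chrX:53054255-53054349) is followed by Mir503 (chrX:53053984-53054054) after 200 bases and by Mir351 (chrX:53053255-53053353) after a further 630. Mir542 (chrX:53049403-53049487) begins 3767 bases further on, and Mir450-2, Mir450-1 and Mir450b follow with gaps of 1035, 54 and 75 bases. No hairpin overlaps an exon or intron of another annotated gene, so the annotation places all of them between genes. The nearest neighbours on the same strand are the lincRNA Gm28730, between Mir351 and Mir542, and the transcript C430049B03Rik upstream of Mir322. miR-450a-5p can be cut from both Mir450-1 and Mir450-2, and its count does not separate them.

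Across cell types, the members were highest in ECs. On a scale common to the 96 libraries (counts per 1000000 mature counts, CPM, with TMM factors, which set the bulk of miRNAs equal between libraries), miR-351-5p averaged 550.3 ± 203 CPM in ECs (SD, n = 24), 147 ± 75.0 in FBs, 123 ± 37.3 in HCs and 66.1 ± 22.4 in CMs. miR-322-5p averaged 228 ± 101 in ECs, 114 ± 66.0 in CMs, 78.2 ± 17.4 in HCs and 37.9 ± 14.7 in FBs. These are means over the 6 days, and in CMs miR-322-5p changed several-fold between days, so the order below ECs also reflects the days pooled. In the unoperated hearts of D0, HCs were above CMs by 1.54 on the log2 scale for miR-322-5p (adjusted p = 0.000595, edgeR) and by 1.97 for miR-351-5p (adjusted p = 1.52e-09, edgeR). miR-322-3p stood at 403 ± 61.5 CPM in ECs and between a mean of 93.4 and 99.6 in the other cell types. miR-450a-5p averaged 361 ± 104 in ECs, 193 ± 51.1 in HCs, 186 ± 46.7 in CMs and 149 ± 57.0 in FBs. miR-503-5p had means of 166 ± 37.7 in ECs, 52.9 ± 16.9 in HCs, 46.1 ± 32.6 in CMs and 25.6 ± 13.1 in FBs. All of these members thus averaged above 25 CPM in every cell type. miR-542-3p averaged 109.9 ± 32.6 CPM in ECs and 26.2 ± 10.9 in FBs, with HCs at 42.9 ± 15.1 and CMs at 38.9 ± 16.5 between them. miR-503-3p, the arm of its hairpin with fewer counts in total, averaged 58.4 ± 18.6 in ECs, 11.2 ± 4.62 in FBs, 9.45 ± 5.05 in HCs and 7.15 ± 2.76 in CMs. miR-542-5p was close to the limit of detection, with means of 2.58 ± 1.59 CPM in ECs, 0.813 ± 0.595 in CMs, 0.370 ± 0.197 in HCs and 0.359 ± 0.242 in FBs. Its counts ran from 0 to 58 per library, and it had 0 counts in 6 libraries. A count of 0 allows a level of up to 3 counts, which was 0.212 CPM in CM D0 replicate 2 and 4.72 CPM in the shallower EC D28 replicate 3. Reads carry no molecular identifiers, so such limits cover counting error only.

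By edgeR's quasi-likelihood F test, Benjamini-Hochberg adjusted over 712 miRNAs, 7 of 8 members were higher in ECs than in each other cell type by a log2 fold change of at least 1, whereas 8.85% of all miRNAs tested met this rule. The log2 difference between ECs and CMs was 3.03 for miR-351-5p, 3.01 for miR-503-3p, 2.19 for miR-503-5p, 2.07 for miR-322-3p and 1.10 for miR-322-5p. miR-450a-5p was the exception, at 0.98 above CMs with an adjusted p of 3.32e-13. With library size as the only scaling, 4 of 8 members met the rule. Several neighbours in the order of these 6-day means did not differ beyond their spread. For miR-322-3p this held for all 3 pairs among CMs, FBs and HCs, with log2 differences of -0.10, 0.03 and 0.12 and adjusted p of 0.334, 0.83 and 0.197 (edgeR). At D0 alone, however, miR-322-3p was higher in HCs than in CMs by 1.31 and than in FBs by 1.32 (adjusted p = 1.53e-06 and 1.04e-06, edgeR). Over the 6 days, HCs and CMs were not told apart for miR-322-5p (adjusted p = 0.0715, edgeR), miR-542-3p (0.349) and miR-450a-5p (0.422). HCs and FBs were not told apart for miR-351-5p (adjusted p = 0.0975, edgeR), miR-503-3p (0.0957) and miR-542-5p (0.407). Every other pair of cell types passed the test of the 6-day means for each member. For miR-503-5p the 6-day mean was lower in FBs than in CMs by a log2 difference of -0.62, whereas at D0 FBs were above CMs by 1.08 (adjusted p = 0.0147, edgeR). Under library size alone, the order of CMs and FBs turned round for miR-322-5p, miR-503-5p, miR-542-3p, miR-542-5p and miR-450a-5p.

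**Figure D1:**
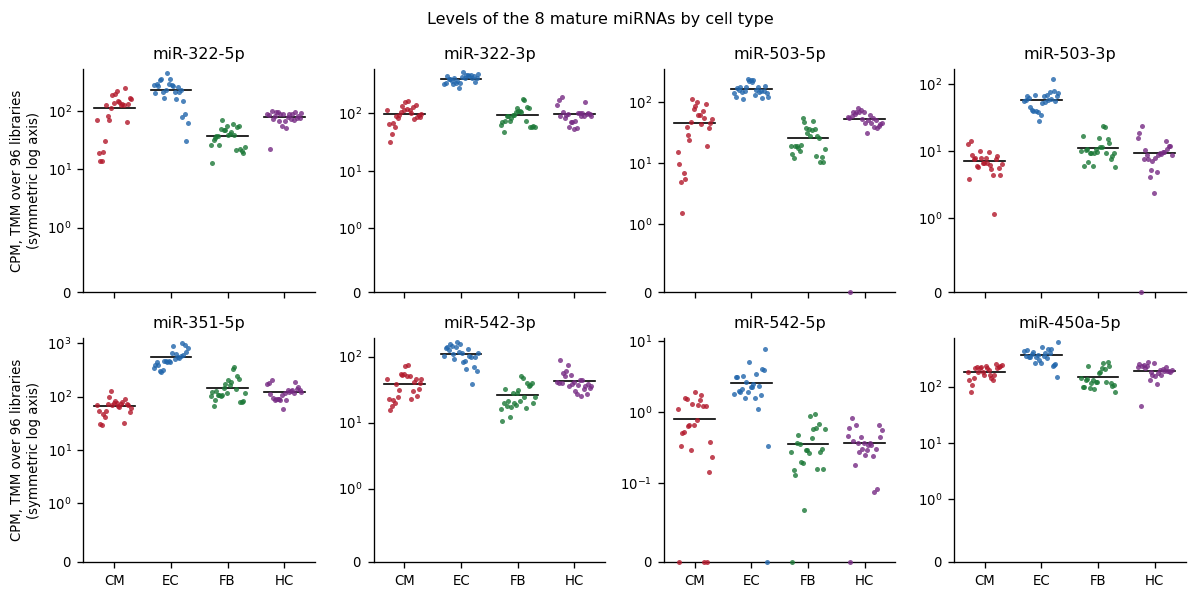
Each point is 1 of 96 libraries (24 per cell type, ordered by day from left to right), and the line is the mean. The y axis is CPM on the scale common to the 96 libraries, on a symmetric log axis that includes 0. The EC mean is the highest for every member, and CM points of miR-322-5p and miR-503-5p climb from left to right. Points at 0 are libraries without a count.

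In CMs, miR-322-5p and miR-503-5p rose after MI while the other members moved less or not at all. From here on, CPM values are on the TMM scale of the 24 libraries of one cell type, and changes are log2 fold changes against D0. miR-322-5p was measured at 36.4, 7.35, 8.31 and 5.79 CPM at D0, 9.57, 15.1, 45.8 and 31.5 at D1 and 27.1, 36.2, 70.4 and 51.3 at D3. It then stood at 67.7, 77.5, 53.6 and 55.0 at D7, 49.0, 52.8, 49.1 and 88.9 at D14 and 27.9, 47.0, 65.4 and 61.0 at D28. The group means climbed from 14.5 ± 14.6 (SD, n = 4) at D0 to 63.5 ± 11.3 at D7, and all 4 libraries of D7 and of D14 lay above all 4 of D0. miR-503-5p had values of 7.89, 3.67, 2.97 and 0.643 CPM at D0, 3.27, 2.72, 14.4 and 11.3 at D1 and 9.23, 15.2, 42.4 and 29.2 at D3. Later values were 30.0, 35.4, 21.9 and 23.7 at D7, 16.9, 28.8, 21.6 and 33.6 at D14 and 8.25, 13.9, 18.2 and 20.7 at D28. Here the 4 libraries of D3, D7, D14 and D28 were each above the highest library of D0. The mean was 3.79 ± 3.02 at D0, 27.8 ± 6.13 at D7 and 15.3 ± 5.48 at D28. By the same test, adjusted over 484 miRNAs, the rise of miR-322-5p at D3, D7, D14 and D28 was 1.69 ± 0.51 (SE), 2.15 ± 0.51, 2.07 ± 0.51 and 1.81 ± 0.51, with edgeR's adjusted p of 0.00707, 0.000847, 0.00125 and 0.00462. miR-503-5p rose by 2.69 ± 0.59, 2.90 ± 0.59, 2.77 ± 0.59 and 2.04 ± 0.58 at the same days, with edgeR's adjusted p of 0.000567, 0.000183, 0.000323 and 0.00499. At D1 the changes were 0.84 and 1.11 (adjusted p = 0.214 and 0.152, edgeR).

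miR-542-3p in CMs gave 23.7, 8.57, 9.10 and 7.29 CPM at D0, 10.3, 9.86, 13.9 and 9.19 at D1 and 12, 17.5, 19.4 and 20.2 at D3. Afterwards it gave 25.4, 18.2, 26.2 and 20.1 at D7, 8.92, 12, 16.3 and 16.8 at D14 and 11.0, 11.8, 15.8 and 17.9 at D28. It rose at D7 by 0.89 ± 0.32 (adjusted p = 0.0174, edgeR) and was back near its D0 level at D14. That call was lost in 3 of 24 fits with 1 library left out (D0 replicate 2 or 4, or D7 replicate 3). Its partner arm miR-542-5p was at 0.564, 0, 0.198 and 0.214 CPM at D0, 0.252, 0.779, 0.551 and 0.247 at D1 and 0.256, 0.0959, 0.488 and 0.242 at D3. The last 3 days had 0.658, 0.278, 0.453 and 0.580 at D7, 0.664, 0.492, 0 and 0.444 at D14 and 0, 0.0512, 0.149 and 0.0894 at D28. These rest on 0 to 17 counts per library, and no single day passed the test, although the 6 days together did (adjusted p = 0.0412, edgeR). miR-351-5p ranged between 12 and 41.1 CPM over all CM libraries, and its changes of 0.06 to 0.63 did not pass at any day. miR-322-3p ranged from 18.4 to 58.9 CPM and rose at D7 by 0.74 ± 0.29 (adjusted p = 0.0252, edgeR), a call lost in 11 of 24 fits that left out 1 library. miR-450a-5p ranged from 43.9 to 105 CPM and rose at D28 by 0.63 ± 0.25 (adjusted p = 0.0333, edgeR), a call lost in 17 of 24 such fits. miR-503-3p went the other way from its 5p arm, from a mean of 5.03 ± 3.10 CPM at D0 to 1.76 ± 0.964 at D14 and 2.46 ± 0.844 at D28, on 3 to 83 counts per library. It fell by 1.45 ± 0.44 at D14 and 1.05 ± 0.44 at D28 (adjusted p = 0.00602 and 0.0452, edgeR). The call at D14 was lost without CM D0 replicate 3, and that at D28 in 6 of 24 fits with 1 library left out.

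When the 6 days were tested together, 4 of 8 members changed in CMs (miR-322-5p, miR-503-5p, miR-542-3p and miR-542-5p), beside 73.8% of all miRNAs tested. This count was 2 with the replicate block, 8 with library size alone and 2 to 6 with 1 library left out, the 2 being without D7 replicate 1, D14 replicate 1 or 2, or D28 replicate 1 or 2. At D3, D7, D14 and D28, 2, 4, 2 and 3 members rose, when 31.8%, 38.8%, 38% and 29.5% of all miRNAs rose. The member that fell at D14 and D28, miR-503-3p, stands beside 29.1% and 24.8% of all miRNAs. The counts of members are near this background. The choice of scale moved values most in CMs. The median change of all 484 miRNAs was 0.20 to 0.44 with TMM, but 1.42 to 2.99 with library size alone. With library size alone, 37 of 40 member-by-day changes were higher and none lower, and miR-503-3p turned to 1.11 at D14 and 0.64 at D28. On the TMM scale at D7, the changes of 2.15 for miR-322-5p and 2.90 for miR-503-5p stand against a median of 0.35. CM D0 replicate 1 stood apart, with miR-322-5p at 36.4 CPM where the other 3 libraries had 5.79 to 8.31. Without it, miR-322-5p rose by 2.59, 3.09, 3.00 and 2.75 at D3, D7, D14 and D28, and 22 member-by-day changes were higher in place of 11. Markers of other cell types also moved in the CM libraries. The summed level of the 2 EC markers (miR-126a-3p and miR-126a-5p) on the same TMM scale had a median of 20160 CPM at D0 (15303 to 28990), 15266 at D3 (13552 to 15935) and 12651 at D14 (9436 to 14103). Their direction turned with the scale, since on library size alone the medians were 6724, 17205 and 24506. The sum also hides a split between the 2 EC markers in edgeR's test on the TMM scale. At D3, 1 of the 2 was higher and 0 lower, and at D14, 1 was higher and 1 lower. On the TMM scale the 3 FB markers went from 123 to 1018 CPM at D14 and the 4 HC markers from 56.1 to 131 at D7, with no marker at 0 counts in a whole group. By edgeR's test, 3 of the 4 HC markers were higher at D7 and 0 lower, with a median log2 fold change of 3.14 over the 4. The share of reads matched to no miRNA moved as well, from 29.0% to 42.0% per library at D0 to 41.8% to 46.2% at D7 and 48.8% to 83% at D14, where replicates 1 to 3 also had the lowest totals of all CM libraries. The part of these in the changes was not tested.

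**Figure D2:**
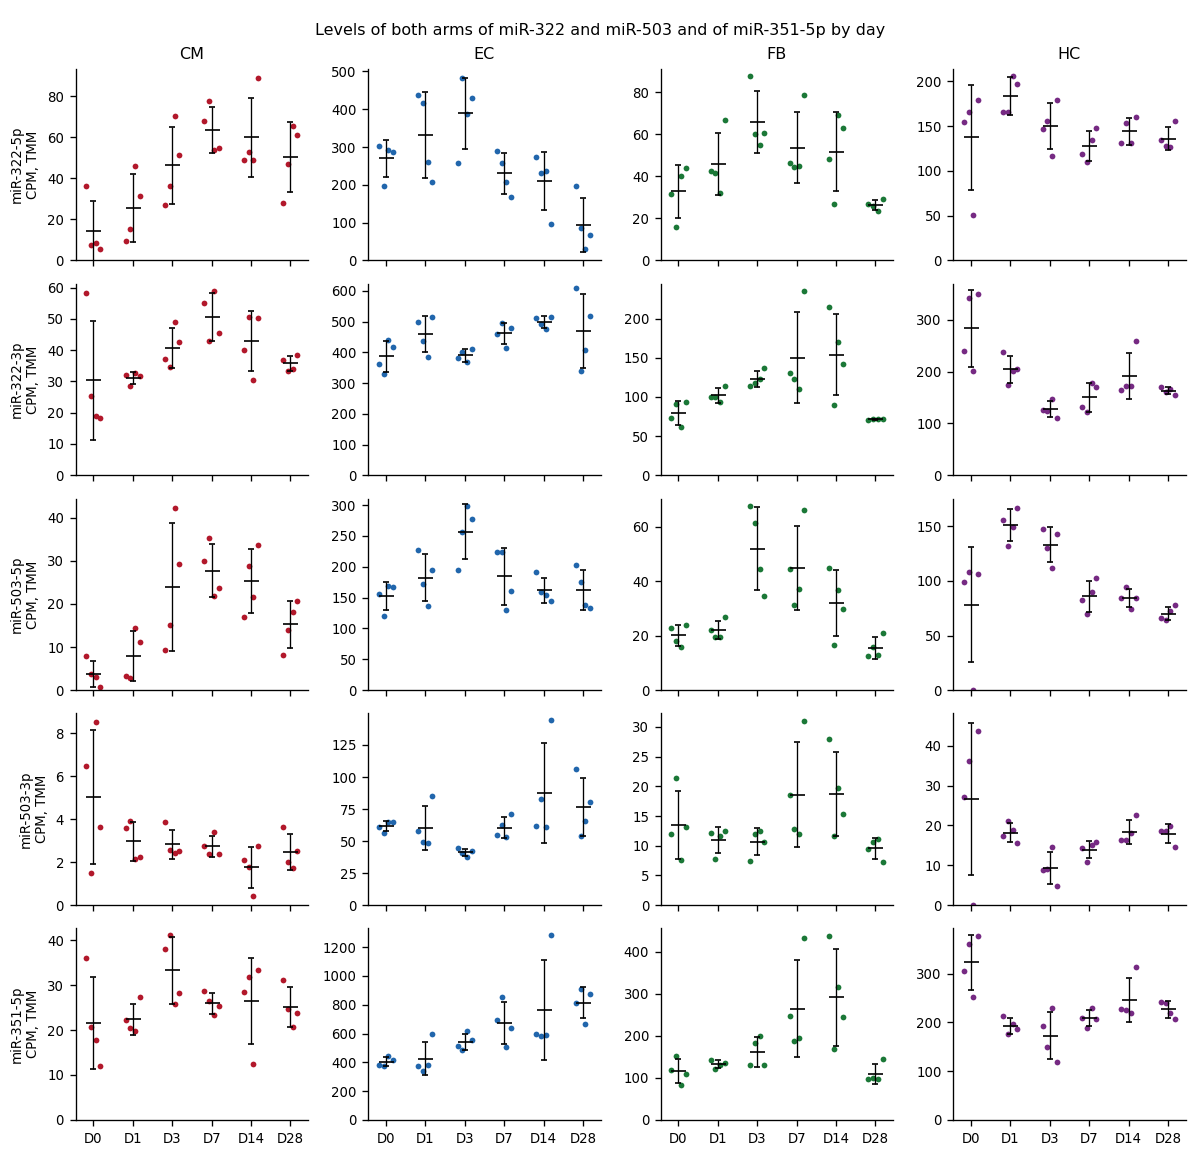
Rows are miR-322-5p, miR-322-3p, miR-503-5p, miR-503-3p and miR-351-5p, and columns the 4 cell types. The y axis is CPM on the TMM scale of that cell type, starting at 0, points are libraries, and the bar and whiskers are the mean and SD of 4. miR-322-5p in CMs goes from a mean of 14.5 at D0 to 63.5 at D7, and miR-351-5p in ECs from 405 at D0 to 814 at D28. HC D0 replicate 3, the library of 18286 counts, is the point at 0 for both arms of miR-503.

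In FBs, 7 of the 8 members rose at one or more days between D3 and D14, and none differed from D0 at D1 or D28. Shares of all miRNAs at D3, D7 and D14 are given below. None is given for these days together or for D1 and D28, so 7 of 8 has no background here. miR-351-5p, with the miR-125 seed, was at 120, 152, 84.2 and 109 CPM at D0, 142, 122, 130.4 and 136 at D1 and 132, 184, 199.9 and 131 at D3. It reached 248, 187, 194 and 432 at D7, 438, 168, 317 and 244 at D14 and 96.5, 98.7, 97.9 and 145 at D28. All libraries of D7 and D14 lay above those of D0, and the mean went from 116 ± 28.0 CPM to 292 ± 115 at D14 and 109 ± 23.5 at D28. It rose by 1.20 ± 0.27 at D7 and 1.34 ± 0.27 at D14 (adjusted p = 0.000888 and 0.000885, edgeR, Benjamini-Hochberg adjusted over 563 miRNAs). The 4 libraries had miR-322-5p at 31.4, 15.9, 40.2 and 44.1 CPM at D0, 42.3, 41.7, 32.2 and 66.7 at D1 and 87.6, 60.3, 55.1 and 60.6 at D3. For the later days the values were 46.4, 44.6, 44.9 and 78.9 at D7, 48.4, 26.7, 69.3 and 62.9 at D14 and 26.8, 26.0, 23.3 and 29.3 at D28. The libraries of D3 and D7 were all above D0, and 1 library at D7, replicate 4, was high for this and other members. The rise passed at D3 (0.97 ± 0.29, adjusted p = 0.00835, edgeR). Its 3p arm was at 73.3, 90.5, 61.7 and 93.2 CPM at D0, 99.6, 100, 93.5 and 115 at D1 and 114, 117, 123 and 137 at D3. The 3p arm then stood at 131, 123, 110.0 and 236 at D7, 215, 90.3, 169.7 and 142 at D14 and 71.1, 71.7, 71.8 and 71.3 at D28. The libraries of D1, D3 and D7 were all above D0, and the 4 of D28 lie within 1 CPM of each other inside the D0 range. miR-322-3p rose by 0.63, 0.92 and 0.96 at D3, D7 and D14 (adjusted p = 0.0272, 0.00201 and 0.00336, edgeR), and the call at D3 was lost in 3 of 24 fits with 1 library left out.

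Values of miR-503-5p in FBs were 23.0, 17.9, 15.7 and 23.8 CPM at D0, 21.9, 19.7, 19.7 and 27.0 at D1 and 67.5, 61.2, 44.6 and 34.4 at D3. Values at the later days were 44.6, 31.4, 37.0 and 66.2 at D7, 45.0, 16.4, 36.7 and 29.9 at D14 and 12.6, 15.8, 12.8 and 21.1 at D28. No library of D3 or D7 overlapped D0 or D1, while D14 and D28 overlapped D0. The change was 1.36 ± 0.28 at D3 and 1.15 ± 0.28 at D7 (adjusted p = 0.000297 and 0.00165, edgeR). miR-503-3p stayed lower, at 12, 21.4, 7.67 and 13.1 CPM at D0, 12.2, 7.80, 11.7 and 12.5 at D1 and 7.48, 12.1, 12.5 and 10.7 at D3. From D7 on, the arm had 18.6, 12.8, 11.9 and 31.1 at D7, 28.0, 11.7, 19.8 and 15.3 at D14 and 9.39, 10.6, 11.1 and 7.18 at D28. The groups overlapped D0 at every day. No day passed, although the 6 days together did (adjusted p = 0.0145, edgeR), and the highest means were those of D7 (18.6 ± 8.85 CPM) and D14 (18.7 ± 7.01) against 13.5 ± 5.73 at D0. At the far end of the cluster, miR-450a-5p was at 166, 124, 128 and 166 CPM at D0, 155, 260.3, 120 and 158 at D1 and 162, 117, 141 and 133 at D3. It later measured 209, 202, 221 and 345 at D7, 251, 149.8, 356 and 267 at D14 and 139, 127, 130 and 97.9 at D28. D7 lay wholly above D0, and the other days overlapped it. The rises were 0.74 ± 0.24 at D7 and 0.81 ± 0.24 at D14 (adjusted p = 0.0142 and 0.0158, edgeR). The first was lost without FB D7 replicate 4, and the second without FB D0 replicate 3 or D14 replicate 3. miR-542-3p in FBs was read at 18.8, 13.4, 25.5 and 41.1 CPM at D0, 20.0, 23.9, 14.9 and 23.6 at D1 and 34.0, 25.3, 21.6 and 31.1 at D3. At later days it was read at 37.1, 24, 53.6 and 62.1 at D7, 29.8, 20.7, 52.7 and 40.7 at D14 and 44.6, 49.0, 23.5 and 30.3 at D28. Here all days overlapped D0, and the 4 libraries of D0 alone spanned 13.4 to 41.1 CPM. The rise at D7 of 0.82 ± 0.32 (adjusted p = 0.0393, edgeR) was 0.68 with an adjusted p of 0.0961 without FB D0 replicate 2. miR-542-5p, on 0 to 34 counts per library, rose at D14 by 1.63 ± 0.57 (adjusted p = 0.0392, edgeR) and ranged up to 1.15 CPM. These calls of miR-542-3p and miR-542-5p were each lost in 5 of 24 fits with 1 library left out.

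In all, 3 members rose in FBs at D3, 5 at D7 and 4 at D14, while 22.9%, 24.5% and 14.4% of the 563 miRNAs tested did so. No member fell at any day in edgeR's quasi-likelihood test, with 0 of 40 changes lower at an unadjusted p under 0.05 and 0 in DESeq2. At D1 and D28 no member passed, and 0 had an unadjusted p under 0.05. Together, the 6 days differed for 7 of 8 members, all but miR-542-5p, beside 68.2% of all miRNAs. The median change of all miRNAs stayed within -0.07 and 0.06, and that of the 8 members was 0.35 at D3, 0.87 at D7 and 0.74 at D14. Leaving out each library in turn gave 8 to 14 rises in place of 12, and no fall. The FB markers (miR-199a-3p, miR-199a-5p and miR-214-3p) summed on the TMM scale to a median of 59754 CPM at D0, 48258 at D7 and 67244 at D14. The EC markers in FBs were at 30506 CPM at D0 (23558 to 32376), 26182 at D7 (18288 to 26907) and 35116 at D14 (17317 to 38906). The part of these marker levels in the changes of the members was not tested. The relatives by seed gave mostly other directions in FBs. Of the 7 relatives of miR-322-5p with counts, 5 were followed here (miR-15a-5p, miR-15b-5p, miR-16-5p, miR-195a-5p and miR-497a-5p), and 2 of the 3 of miR-351-5p. Of the 5 relatives of miR-322-5p, 4 fell at D7 and 4 at D14, with median changes of -0.95 and -0.89. At D3, 1 of them rose and 1 fell, and at D28 none passed. Of the relatives of miR-351-5p, miR-125b-5p changed by -1.0, -1.23 and -0.75 and miR-125a-5p by -1.19, -0.97 and -0.43 at D3, D7 and D14, and 2, 2 and 1 of them fell by the test. At D3, D7 and D14, 20.1%, 21.1% and 10.3% of all miRNAs fell. At D7 miR-351-5p thus rose while miR-125b-5p, with the same first 8 bases, fell.

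**Figure D3:**
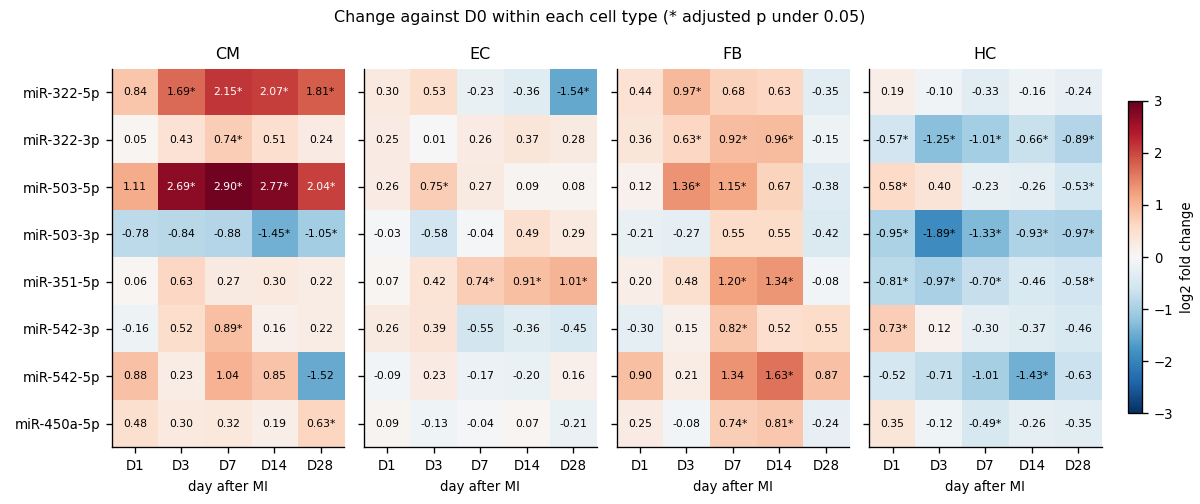
Each cell gives the log2 fold change of a member (row) at a day after MI (column) against D0 in that cell type, on the TMM scale. An asterisk marks an adjusted p under 0.05 in edgeR's quasi-likelihood test, and red is higher, blue lower. The rows of miR-322-3p, miR-503-3p and miR-351-5p are blue in HCs, where miR-322-3p reached -1.25 at D3, and red at D7 and D14 in FBs, where it reached 0.96 at D14.

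In HCs on the TMM scale, the 3p arms of miR-322 and miR-503 and miR-351-5p fell after MI, while no change of miR-322-5p passed and miR-503-5p rose at D1. The third value at D0 is in each case HC D0 replicate 3, which rests on 0 to 5 counts. miR-322-3p was at 240.5, 342, 202 and 349 CPM at D0, 237, 174, 201 and 204 at D1 and 126, 125, 148 and 110.4 at D3. It recovered in part, to 131, 122, 177 and 169.9 at D7, 163, 171, 172 and 259 at D14 and 170.1, 161, 166 and 155 at D28. All libraries of D3, D7 and D28 lay below all of D0. It fell by 0.57 ± 0.18, 1.25 ± 0.18, 1.01 ± 0.18, 0.66 ± 0.18 and 0.89 ± 0.18 at the 5 days after MI in order (adjusted p from 1.98e-06 to 0.0113, edgeR, Benjamini-Hochberg adjusted over 608 miRNAs). The calls at D1 and D14 were lost in 6 and 5 of 24 fits with 1 library left out. For miR-503-3p the libraries gave 27.1, 36.2, 0 and 43.8 CPM at D0, 17.3, 21, 19.0 and 15.6 at D1 and 8.92, 9.08, 14.7 and 4.81 at D3. They returned in part, to 14.3, 10.8, 15 and 15.7 at D7, 16.4, 16.4, 18.1 and 22.7 at D14 and 18.6, 18.7, 20.0 and 14.6 at D28. Apart from replicate 3, every D0 library lay above every later one. The lowest group was D3, with a mean of 9.38 ± 4.06 CPM. On the log2 scale it fell by 0.95, 1.89, 1.33, 0.93 and 0.97, all past the threshold (adjusted p at most 0.00552, edgeR). miR-351-5p in HCs was at 305, 360.1, 252 and 376 CPM at D0, 214, 175, 196 and 187 at D1 and 193, 149.8, 229 and 119 at D3. The level came to 209.6, 189, 229.9 and 208 at D7, 227, 225, 218 and 314 at D14 and 241, 239.9, 219 and 207 at D28. D1, D3, D7 and D28 lay wholly below D0. It fell by 0.81 ± 0.18, 0.97 ± 0.18, 0.70 ± 0.18 and 0.58 ± 0.18 at these days (adjusted p = 0.000425, 4.61e-05, 0.00204 and 0.0177, edgeR), and its change at D14 was -0.46 (adjusted p = 0.0513, edgeR). The call at D28 was lost in 7 of 24 fits with 1 library left out.

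The 5p arm miR-322-5p gave 154, 165, 50.4 and 179 CPM at D0, 165, 166, 206 and 197 at D1 and 146, 156, 117 and 179 at D3. It gave 119, 110.3, 135 and 148 at D7, 131, 154, 131 and 160.3 at D14 and 134, 128, 127 and 155 at D28. The other 3 libraries of D0 overlapped D1, D3, D14 and D28, those of D7 lay below them, and no day passed the test. Its changes ranged from -0.33 to 0.19. miR-503-5p was found at 99.1, 108, 0 and 107 CPM at D0, 156, 132, 149 and 167 at D1 and 147, 131, 112 and 143 at D3. Then it was found at 82.2, 69.2, 89.5 and 103 at D7, 84.0, 94.4, 73.9 and 84.0 at D14 and 66.0, 64.0, 72.7 and 77.6 at D28. All libraries of D1 and D3 exceeded the other 3 libraries of D0, and D7 to D28 had only 1 library, at 103 CPM, above the lowest of these 3. HC D0 replicate 3, with 0 counts, cannot be ranked against any of them. It rose by 0.58 ± 0.18 at D1 (adjusted p = 0.0103, edgeR) and fell by 0.53 ± 0.18 at D28 (adjusted p = 0.0354, edgeR), a fall lost in 10 of 24 fits with 1 library left out. The change at D3 was 0.40 ± 0.18 (adjusted p = 0.0639, edgeR). miR-542-3p stood at 70.8, 77.8, 202 and 72.7 CPM at D0, 126, 103, 133 and 152 at D1 and 77.5, 91.8, 81.6 and 85.1 at D3. Its later levels were 54.9, 58.5, 63.9 and 73.4 at D7, 45.4, 75.5, 60.2 and 58.6 at D14 and 48.2, 60.7, 55.3 and 60 at D28. The value of 202 at D0 is 4 counts of HC D0 replicate 3. Against the other 3 libraries, D1 was higher, and the test gave 0.73 ± 0.19 at D1 (adjusted p = 0.00242, edgeR) and 0.80 without that library. miR-450a-5p had 384, 499, 101 and 425 CPM at D0, 546, 444, 509.7 and 569.6 at D1 and 288, 323, 345 and 539 at D3. From D7 it had 279.8, 241, 303 and 332 at D7, 292, 344, 356 and 361 at D14 and 329, 301, 311 and 332 at D28. Against the other 3 libraries of D0, those of D7, D14 and D28 lay lower and those of D1 and D3 overlapped. It fell at D7 by 0.49 (adjusted p = 0.0491, edgeR), a call lost in 17 of 24 fits with 1 library left out. Without HC D0 replicate 3 this change was -0.59 (adjusted p = 0.00672, edgeR). miR-542-5p, on 0 to 34 counts per library, fell by 1.43 ± 0.45 at D14 (adjusted p = 0.0187, edgeR), a call lost without HC D0 replicate 4 or D14 replicate 3.

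Of 8 members, 2 rose and 3 fell at D1, while 25.3% of the 608 miRNAs rose and 28.9% fell. At D3, D7, D14 and D28, 3, 4, 3 and 4 members fell beside 28.1%, 19.6%, 12.8% and 11.3% of all miRNAs, and none rose. For the 6 days together 6 of 8 changed, all but miR-322-5p and miR-542-5p, beside 73.5%, and 7 of 8 without HC D0 replicate 3. Without HC D0 replicate 3 the counts were 2 rises and 18 falls in place of 2 and 17, and without HC D0 replicate 4, 11 falls. With library size alone they were 7 rises and 9 falls, and the median change of all miRNAs was 0.34 to 0.59 in place of -0.08 to 0.18. Under library size, miR-322-5p rose at D1 (0.62, adjusted p = 0.00426, edgeR) and D3 (0.43, adjusted p = 0.0331, edgeR). So did miR-503-5p and miR-542-3p at D1 and D3 and miR-450a-5p at D1. Falls no longer passed for miR-322-3p at D1 and D14, miR-351-5p at D7 and D28 and miR-503-3p at D1. The falls of miR-503-5p, miR-450a-5p and miR-542-5p were lost as well. Marker levels of several cell types moved in the HC fraction over the same days. On the TMM scale of the HC libraries, the EC markers had a median of 90873 CPM at D0 (50604 to 122093), 16859 at D3 (12149 to 21434) and 22897 at D28 (20754 to 25116). The 5 CM markers went from 128909 at D0 to 40783 at D3, and the 2 mural cell markers from 31938 to 4954. The 4 HC markers went from 9292 (7359 to 12337) to 18262 (14598 to 21965), and the FB markers ended higher, at 16560 CPM at D28 against 5552 at D0. Taken one by one at D3, 3 of the HC markers were higher and 1 lower by edgeR's test. The members were highest in ECs, and the share of reads matched to no miRNA was 34.3% to 51.6% at D0, 59.3% to 62.5% at D3 and 35.8% to 43.9% at D28. The part of either in the changes in HCs was not tested. The 2 seed relatives of miR-351-5p followed here, miR-125a-5p and miR-125b-5p, fell together with it at D1, D3 and D7, with median changes of -1.70, -2.59 and -1.48. At D14 both relatives fell, with a median of -0.72, while miR-351-5p changed by -0.46 and did not pass. Neither relative passed at D28.

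In ECs, where the cluster was most abundant, miR-322-5p and miR-351-5p had moved apart by D28. miR-322-5p was at 303, 197, 293 and 286 CPM at D0, 439, 417, 260.0 and 208 at D1 and 259, 481, 386 and 429 at D3. Its later values were 290.2, 257, 207 and 167 at D7, 274, 232, 236 and 96.9 at D14 and 196, 84.8, 29.8 and 66.2 at D28. All 4 libraries of D28 were below D0, after the highest mean of the course at D3 (389 ± 95 CPM). At D28 it fell by 1.54 ± 0.39 (adjusted p = 0.00178, edgeR, Benjamini-Hochberg adjusted over 421 miRNAs). miR-351-5p read 381, 375, 446 and 416 CPM at D0, 377, 341, 384 and 594 at D1 and 512, 486, 616 and 552 at D3. It went on to 695, 854, 507 and 639 at D7, 595, 581, 591 and 1281 at D14 and 811, 906, 666 and 874 at D28. D3, D7, D14 and D28 were each wholly above D0. It rose by 0.74 ± 0.25 at D7, 0.91 ± 0.25 at D14 and 1.01 ± 0.25 at D28 (adjusted p = 0.0315, 0.0142 and 0.00186, edgeR). The call at D7 was lost in 5 of 24 fits with 1 library left out (D0 replicate 1, 2 or 4, or D7 replicate 1 or 2). EC D14 replicate 4, at 1281 CPM, decided the call at D14, which was 0.54 with an adjusted p of 0.138 without it. miR-322-3p, cut from the same hairpin as miR-322-5p, was at 361, 330.3, 439.8 and 416 CPM at D0, 497, 438, 385 and 516 at D1 and 380.1, 402, 367 and 411 at D3. Its values were 458, 495, 414 and 479.8 at D7, 510.0, 493, 476 and 515 at D14 and 609, 339.8, 408 and 519.7 at D28. These groups overlapped D0 except at D14, and no change passed, at most 0.37 at D14 (adjusted p = 0.238, edgeR). At D28, when its 5p arm was lowest, its change was 0.28 ± 0.20.

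miR-503-5p in ECs ranged over 156, 120.2, 168 and 168 CPM at D0, 227, 172, 137 and 195 at D1 and 195, 256, 298 and 278 at D3. After that it was at 223, 223, 130.1 and 161 at D7, 191, 159, 155 and 144 at D14 and 203, 175, 138 and 134 at D28. D3 alone lay wholly above D0. The rise was 0.75 ± 0.23 (adjusted p = 0.023, edgeR) and was lost in 4 of 24 fits with 1 library left out. The 3p arm miR-503-3p had 61.3, 56.2, 65.0 and 64.8 CPM at D0, 57.7, 49.3, 48.1 and 84.9 at D1 and 44.2, 40.9, 37.7 and 42.0 at D3. Subsequent values were 55.0, 62.4, 52.9 and 70.9 at D7, 61.9, 83.1, 61.1 and 144 at D14 and 106, 54.0, 65.4 and 80.5 at D28. It was lowest at D3, where all libraries lay below D0 and its change was -0.58 ± 0.26 (adjusted p = 0.129, edgeR). The 6 days together passed (adjusted p = 0.0212, edgeR). miR-542-3p was at 113, 131, 137 and 133 CPM at D0, 199, 169.9, 133 and 114 at D1 and 154, 179, 154 and 187 at D3. Later ones were 119, 80.2, 84.5 and 66.7 at D7, 143, 109.6, 98.5 and 48.1 at D14 and 93.7, 95.7, 59.7 and 124 at D28. All D3 libraries lay above D0, and 9 of the 12 libraries of D7, D14 and D28 lay below it. No single day passed, while the 6 days together did (adjusted p = 0.0124, edgeR). Levels of miR-450a-5p were 473, 338, 451 and 360.5 CPM at D0, 434, 459, 502 and 331 at D1 and 374, 394, 394 and 324 at D3. They remained near, at 532, 334, 385 and 327 at D7, 496, 439.6, 472 and 291 at D14 and 329.8, 242, 146 and 680.5 at D28. The D28 libraries spread from 146 to 680.5 CPM, more than any other day. Its changes lay between -0.21 and 0.09 and did not pass. miR-542-5p ranged from 0 to 7.52 CPM on 0 to 58 counts and did not pass at any day.

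Of the members, 1 rose at D3 (miR-503-5p) and 1 at each of D7, D14 and D28 (miR-351-5p), while 15.4%, 17.8%, 11.4% and 26.8% of the 421 miRNAs rose. miR-322-5p fell at D28 beside 20.2% of all miRNAs. Over the 6 days 4 of 8 members changed (miR-322-5p, miR-351-5p, miR-542-3p and miR-503-3p), beside 58.2%. Without a filter on low counts, none of the 4 rises passed. Libraries of ECs at D28 had totals of 525651 to 3902765 counts, and miR-322-5p rested there on 21 to 185 counts. The median change of all miRNAs in ECs was -0.01 to 0.12. Without EC D28 replicate 3, the library farthest from its group, the change was -1.26 (adjusted p = 0.00609, edgeR). On the TMM scale the EC markers had a median of 212687 CPM at D0 and 152050 at D28 (129825 to 204612), and the FB markers 2461 and 4931. Reads matched to no miRNA were 48.5% to 67.3% of a library at D0 and 66.0% to 77.5% at D28. The part of these in the changes was not tested. Of the 5 seed relatives of miR-322-5p followed here, 3 also fell at D28, and both followed relatives of miR-351-5p rose, with median changes of -0.72 and 1.22.

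The time courses differed between the cell types. The interaction of cell type and day passed for 8 of 8 members (edgeR's quasi-likelihood test on all 96 libraries, which leaves out that cell types of a day share animals), beside 76.3% of the 712 miRNAs. FBs and HCs are the pair prepared with the same input and cycles, and their changes against D0 were compared directly. The change in FBs exceeded that in HCs for 16 of 40 member-by-day pairs, and none went the other way (0 at an unadjusted p under 0.05, but 1 in DESeq2 and 1 without HC D0 replicate 3). miR-322-3p differed at 4 days, by 1.14 ± 0.32 (SE) at D1, 2.03 ± 0.33 at D3, 1.91 ± 0.33 at D7 and 1.5 ± 0.32 at D14, with adjusted p of 0.00742, 8.98e-07, 6.11e-06 and 0.000958 (edgeR). miR-351-5p differed by 1.23, 1.60, 1.88 and 1.68 at the same days. miR-503-3p differed by 1.78, 1.86 and 1.38 at D3, D7 and D14, and miR-542-5p by 2.43 and 3.00 at D7 and D14, the last on few counts. At D7 the difference also passed for miR-450a-5p (1.21), miR-542-3p (1.20) and miR-503-5p (1.38), so that 7 of 8 members differed on that day. The numbers of members were 2 at D1, 3 at D3, 7 at D7 and 4 at D14, when the change was higher in FBs for 12.9%, 18.8%, 8.29% and 5.2% of all miRNAs. miR-322-5p did not pass at any day. TMM scales all libraries to 1 reference library, and with another reference 12 of the 16 passed. The calls of miR-322-3p and miR-351-5p at D1 and of miR-503-5p and miR-542-3p at D7 were lost there. Fitting the 48 FB and HC libraries alone gave 18, leaving out HC D0 replicate 3 gave 15, and library size alone gave 10. Without HC D0 replicate 3, miR-351-5p at D1 (0.95, adjusted p = 0.0588, edgeR) and miR-542-3p at D7 (0.99, adjusted p = 0.0878, edgeR) were lost. A pair outside the 16 passed in that fit. With any 1 library left out the count was 9 to 17, with 9 without FB D0 replicate 3 or HC D0 replicate 4 and 10 without FB D7 replicate 4.

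The ratio of the 5p to the 3p arm within a library does not depend on how libraries are scaled, although each arm carries its own ligation and amplification bias, so changes of the ratio are read and not its level. Values are log2 of the ratio with a pseudocount of 0.5. In CMs the ratio of miR-322 was -0.68, -1.78, -1.18 and -1.65 at D0, -1.74, -0.91, 0.49 and -0.01 at D1 and -0.45, 0.07, 0.52 and 0.27 at D3. It went on at 0.29, 0.85, -0.13 and 0.28 at D7, 0.29, 0.06, 0.68 and 0.82 at D14 and -0.40, 0.49, 0.94 and 0.66 at D28. At D0 the 3p arm had more counts than the 5p arm in all 4 libraries, and at D7, D14 and D28 the 5p arm had more in 10 of 12. For miR-503 in CMs the ratio was 0.28, 1.25, -1.49 and -2.32 at D0, -0.14, -0.50, 2.74 and 2.33 at D1 and 1.25, 2.57, 4.11 and 3.52 at D3. The later ratios were 3.43, 3.88, 2.68 and 3.30 at D7, 2.99, 3.99, 5.40 and 3.61 at D14 and 1.17, 2.78, 3.38 and 3.03 at D28. The D0 libraries were split, from -2.32 to 1.25, on 3 to 43 counts per arm. From D7 on, 11 of 12 libraries were above every D0 library. Against D0 the ratio of miR-322 rose by 1.42, 1.65, 1.79 and 1.75 at D3, D7, D14 and D28 (adjusted p = 0.00529, 0.00139, 0.000675 and 0.00103, limma with Benjamini-Hochberg adjustment over hairpins). That of miR-503 rose by 3.43, 3.89, 4.57 and 3.16, and every adjusted p was at most 0.00236 (limma). Among all hairpins tested, 35.4%, 34.3%, 38.4% and 33.3% rose at these days. Both hairpins changed over the 6 days, as did 70.7% of all hairpins in CMs.

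In HCs the ratio of miR-322 was -0.64, -1.05 and -0.96 at D0, -0.52, -0.07, 0.03 and -0.05 at D1 and 0.21, 0.32, -0.33 and 0.70 at D3. At later days the HC ratio was -0.14, -0.14, -0.39 and -0.20 at D7, -0.32, -0.16, -0.39 and -0.69 at D14 and -0.34, -0.33, -0.39 and 0.01 at D28. It passed at D1, D3 and D7, with rises of 0.73, 1.11 and 0.67 (adjusted p = 0.0132, 0.000272 and 0.0374, limma). The call at D1 was lost without HC D0 replicate 2, and that at D7 in 6 of 23 fits with 1 library left out. The ratio of miR-503 in HCs measured 1.87, 1.57 and 1.28 at D0, 3.16, 2.64, 2.97 and 3.42 at D1 and 4.03, 3.84, 2.92 and 4.85 at D3. It narrowed to 2.52, 2.68, 2.57 and 2.71 at D7, 2.36, 2.53, 2.03 and 1.88 at D14 and 1.82, 1.78, 1.86 and 2.41 at D28. All libraries of D1, D3, D7 and D14 exceeded the D0 libraries, with rises of 1.47, 2.34 and 1.04 at D1, D3 and D7 past the threshold (adjusted p = 0.00182, 1.03e-05 and 0.0374, limma). The call at D7 was again lost in 6 of 23 such fits. Among all hairpins in HCs, 14.9% rose at D1, 15.6% at D3 and 5.84% at D7. miR-542 changed by -1.23 at D1 (adjusted p = 0.0492, limma), when 14.9% of hairpins fell, but its 5p arm had 3 to 8 counts there and the call was lost in 17 of 23 fits with 1 library left out. In HCs 2 of 3 hairpins of the cluster changed over the 6 days, beside 34.4% of all hairpins.

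In ECs the ratio of miR-322 was -0.25, -0.74, -0.59 and -0.54 at D0, -0.18, -0.07, -0.56 and -1.31 at D1 and -0.55, 0.26, 0.07 and 0.06 at D3. Afterwards it was -0.66, -0.94, -1.0 and -1.52 at D7, -0.89, -1.09, -1.01 and -2.41 at D14 and -1.63, -2.0, -3.74 and -2.97 at D28. D28 lay below every D0 library. At D28 it fell by 2.05 on the log2 scale (adjusted p = 0.000761, limma), and 25% of all hairpins fell at that day. The EC ratios of miR-503 were 1.35, 1.10, 1.37 and 1.37 at D0, 1.97, 1.80, 1.49 and 1.20 at D1 and 2.14, 2.64, 2.97 and 2.73 at D3. They came back to 2.02, 1.84, 1.30 and 1.18 at D7, 1.62, 0.93, 1.34 and 0.00 at D14 and 0.93, 1.69, 1.07 and 0.73 at D28. Each D3 library exceeded each D0 library. The rise of 1.33 at D3 (adjusted p = 0.0221, limma) stands beside 0.962% of all hairpins, and was lost in 5 of 24 fits with 1 library left out. In FBs miR-503 had ratios of 0.93, -0.25, 1.03 and 0.86 at D0, 0.85, 1.33, 0.75 and 1.10 at D1 and 3.17, 2.34, 1.83 and 1.68 at D3. These were followed by 1.26, 1.29, 1.64 and 1.09 at D7, 0.68, 0.49, 0.89 and 0.96 at D14 and 0.42, 0.57, 0.20 and 1.55 at D28. It rose at D3 by 1.61 (adjusted p = 0.00134, limma), when 10.9% of hairpins rose, and no D3 library overlapped D0. Without FB D0 replicate 2, whose ratio was the lowest, the rise was 1.32. miR-322 in FBs stayed between -2.49 and -0.38 in every library and did not pass over the 6 days (adjusted p = 0.352, limma). Over the 6 days 2 of 3 hairpins changed in ECs and 1 of 2 in FBs, beside 40.4% and 49.7% of all hairpins. The ratio of miR-503 therefore rose at D3 in each of the 4 cell types. As single arms at D3, miR-503-5p and miR-503-3p changed by 2.69 and -0.84 in CMs and by 1.36 and -0.27 in FBs. For HCs the changes were 0.40 and -1.89, and for ECs 0.75 and -0.58.

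Between cell types, 9 of 12 comparisons of these ratios passed (limma, mean over the 6 days). Against CMs, the ratio was lower in ECs and FBs, with differences of -0.92 for miR-322 and -0.69 for miR-503 in ECs and of -1.24 and -1.11 in FBs, while the differences between HCs and CMs were -0.19 and 0.34 (adjusted p = 0.259 and 0.161, limma). HCs were above ECs by 0.73 and 1.02 and above FBs by 1.05 and 1.44. FBs and ECs differed by -0.32 for miR-322 (adjusted p = 0.0472, limma, lost in 30 of 95 fits with 1 library left out) and -0.42 for miR-503 (adjusted p = 0.0727, limma). Such differences were common, since among all hairpins the arm ratio differed for 69% between ECs and CMs, 69.7% between FBs and CMs, 58.6% between HCs and CMs, 60.7% between FBs and ECs, 60.7% between HCs and ECs and 42.8% between HCs and FBs.

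**Figure D4:**
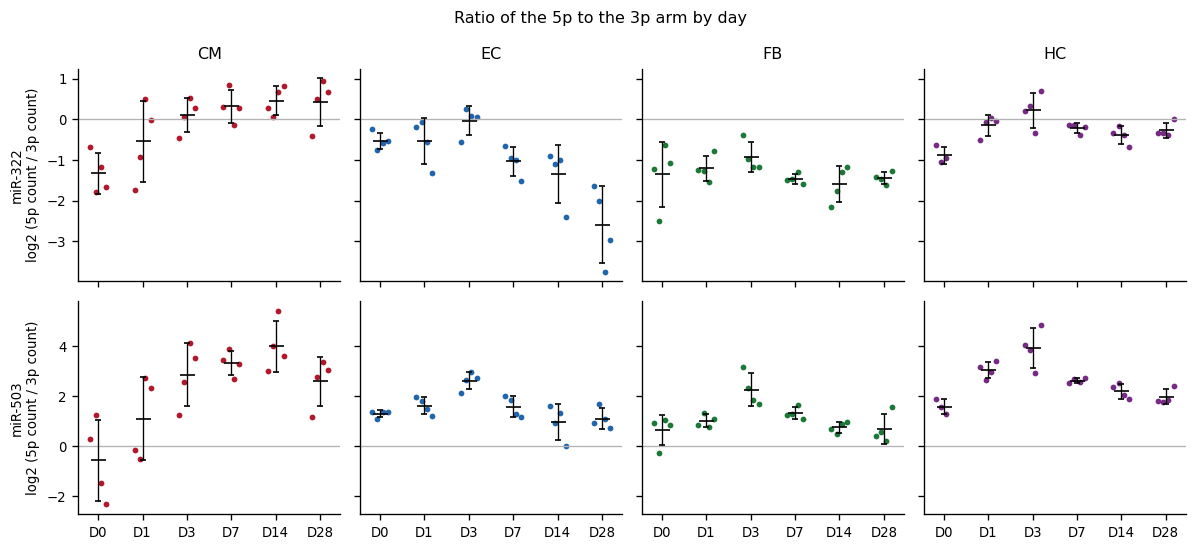
The y axis is log2 of the 5p count over the 3p count of miR-322 (upper row) and miR-503 (lower row) per library, with the mean and SD of each day. HC D0 has 3 libraries and every other group 4. The ratio of miR-503 is higher at D3 than at D0 in all 4 cell types, and that of miR-322 falls to a mean of -2.58 in ECs at D28.

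Members of one cluster need not move together, so 4 of them were also set against miR-322-5p within each library, as log2 of the ratio of counts. In ECs miR-351-5p stood at 0.60 ± 0.25 relative to miR-322-5p at D0 (SD, n = 4), 1.55 ± 0.33 at D7 and 3.41 ± 1.01 at D28. miR-503-5p went from -0.81 ± 0.10 to 1.07 ± 0.87, miR-542-3p from -1.05 ± 0.34 to 0.25 ± 0.95 and miR-450a-5p from 0.59 ± 0.19 to 1.97 ± 1.11. All 4 gained on miR-322-5p in ECs at D28, when miR-322-5p itself changed by -1.54 against D0. In CMs the movement was the reverse for 3 of the 4. miR-450a-5p went from 2.36 ± 0.71 at D0 to 0.15 ± 0.16 at D14, miR-351-5p from 0.90 ± 0.64 to -1.23 ± 0.59 and miR-542-3p from 0.02 ± 0.43 to -2.14 ± 0.40. miR-503-5p, the direct neighbour, was at -1.90 ± 0.87 at D0 and -1.25 ± 0.29 at D14. In FBs miR-542-3p went from -0.44 ± 0.31 at D0 to -1.23 ± 0.19 at D3 and 0.43 ± 0.46 at D28, and miR-450a-5p dipped to 1.08 ± 0.21 at D3 from 2.23 ± 0.56. In HCs miR-503-5p was at -0.67 ± 0.07 (SD, n = 3) at D0, -0.16 ± 0.16 at D3 and -0.96 ± 0.10 at D28. miR-351-5p in HCs fell from 1.06 ± 0.07 at D0 to 0.08 ± 0.21 at D1 and was at 0.74 ± 0.22 at D28. Over the 6 days, 12 of these 16 ratios changed (permutation test with 100000 resamples, Benjamini-Hochberg adjusted over 16). The 4 ratios of a cell type share the count of miR-322-5p, so a change of miR-322-5p alone moves all 4. Ratios of miRNAs outside the cluster to miR-322-5p were not tested, so no share over all miRNAs stands beside this count. Adjusted p-values of the permutation test in ECs were 0.00176 for miR-503-5p, 0.00176 for miR-351-5p, 0.00546 for miR-542-3p and 0.00176 for miR-450a-5p. In CMs they were 0.00767 for miR-351-5p, 0.00176 for miR-542-3p and 0.00346 for miR-450a-5p by permutation, with 0.0787 for miR-503-5p. In FBs miR-542-3p (8e-05) and miR-450a-5p (0.00448) passed by permutation, and miR-503-5p (0.136) and miR-351-5p (0.0772) did not. In HCs miR-503-5p (8e-05, from a raw p of 1e-05, the smallest the permutations can give), miR-351-5p (0.00908) and miR-542-3p (0.000747) passed and miR-450a-5p (0.202) did not. The ratio of the neighbours miR-503-5p and miR-322-5p thus passed in ECs and HCs, with no test of whether the cell types differ in it.

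**Figure D5:**
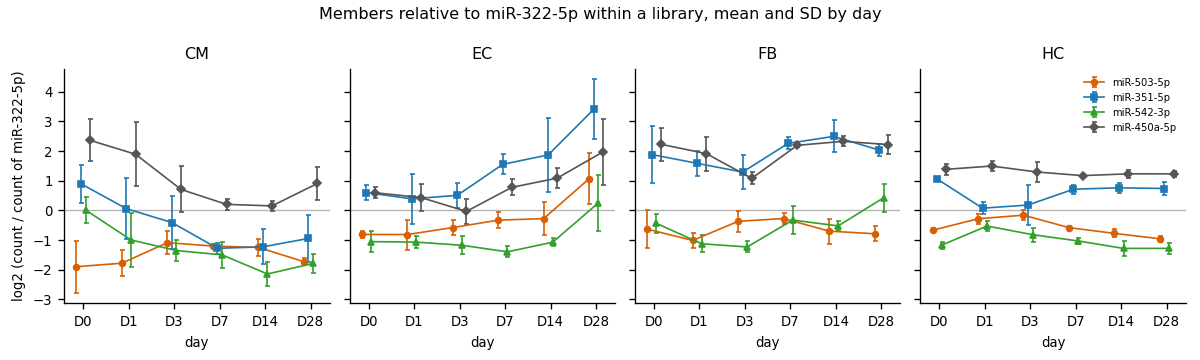
The y axis is log2 of a member's count over the count of miR-322-5p in the same library, the x axis the day, and points and whiskers are means and SDs (n = 4, or 3 for HC D0). miR-351-5p climbs to 3.41 in ECs at D28, and miR-450a-5p in CMs declines from 2.36 at D0 to 0.15 at D14.

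The other arms of the cluster (miR-351-3p, miR-450a-1-3p, miR-450a-2-3p, miR-450b-5p and miR-450b-3p) add to this picture. In CMs, where 3 of the 5 could be tested, miR-450b-3p and miR-450a-1-3p had 8 counts and 1 count over the 4 D0 libraries together. They passed the expression filter only through the later days, and no fold change against D0 is given for them. The mean of miR-450b-3p went from 0.471 ± 0.415 CPM at D0 to 2.10 ± 0.762 at D14. miR-450a-1-3p had 0 counts in 3 of the D0 libraries and averaged 0.613 ± 0.181 CPM at D14. miR-450b-5p fell by 0.62 at D14. In FBs 4 of the 5 were tested, and miR-450a-1-3p rose at D3 (1.23), miR-450b-5p at D3 and D7 (0.93 and 1.56) and miR-351-3p at D7 and D14 (1.80 and 1.78). In HCs all 5 were tested, and miR-450b-5p rose at D1 and D3 (1.32 and 0.80), miR-450b-3p rose at D1 (0.93) and miR-351-3p fell at D3 (-1.12). In ECs none of 4 passed at any day in edgeR's quasi-likelihood test, and 2 of the 20 changes were higher and 0 lower at an unadjusted p under 0.05. In FBs and HCs these arms stand beside the shares of all miRNAs given above for the same days. The followed seed relatives of miR-322-5p rose with it in CMs, where 1, 4, 4, 5 and 5 of 5 were higher at D1, D3, D7, D14 and D28. Of all miRNAs in CMs, 13.6% were higher at D1, and 29.5% to 38.8% from D3 on. The relatives' median changes of 2.09, 2.72, 2.80 and 1.94 from D3 on stand beside 1.69, 2.15, 2.07 and 1.81 for miR-322-5p itself. In HCs the relatives were divided, with 2 higher and 2 lower at D3, when 30.9% of all miRNAs were higher and 28.1% lower, and none called at D28. Of the followed relatives of miR-351-5p, 1 of 2 rose at each day in CMs.

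Over the 24 group means, the miRNAs whose profile was most like the mean profile of the members were miR-450b-3p (Pearson r = 0.950), which is cut from the same cluster, miR-1291 (0.864), miR-126a-3p (0.816), miR-126b-5p (0.810) and miR-5121 (0.790), among 284 non-members with at least 10 CPM. miR-126a is cut from an intron of Egfl7, a gene of endothelial cells. The members themselves correlated with their mean at 0.824 (miR-322-5p) to 0.976 (miR-322-3p). Each member is part of that mean, which raises its r, whereas the non-members are not part of it. The group means share libraries and scaling, and the high level in ECs weighs on all of these values, which are given without a test. Among pairs of members, r over the group means ran from 0.479 to 0.933 with a median of 0.842 over 21 pairs of the 7 members with a mean of at least 10 CPM. Within a cell type, after the mean of each day was removed, the median r between members over libraries was 0.517 both in CMs and in HCs, 0.395 in FBs and 0.217 in ECs. The lowest pair was at -0.19 in CMs, -0.02 in HCs, -0.15 in FBs and -0.62 in ECs. Pairs of other miRNAs were not set beside these, and no test was run. The members of a library share its scaling factor, which enters each of these values.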

How the data were processed

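Small RNA libraries (NEBNext kit, gel-selected inserts, Illumina HiSeq) were sequenced by the authors, who trimmed adapters with Trim Galore, dropped reads shorter than 18 bases and ran the smrnaseq pipeline against miRBase v21. The submitters' processing notes name Bowtie2, SAMtools and the mm10 build without versions. The deposited tables hold whole-number counts of reads per mature miRNA or hairpin for each library, not normalized. The hairpin tables were not used. The line for reads matched to no sequence was left out of totals, and held 25.6% to 83.0% of the reads of a library.

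Groups were taken from the labels of cell type and day. Counts were normalized by TMM within each cell type, or over all 96 libraries for comparisons between cell types, and tested with edgeR 4.0.16 (quasi-likelihood F test, default expression filter, R 4.3.3) with Benjamini-Hochberg adjustment over all miRNAs tested. A call means an adjusted p under 0.05, and the 6-day test asks whether any day differs. Arm ratios, log2 of (5p + 0.5) over (3p + 0.5), were tested with limma 3.58.1 where each arm of a hairpin averaged 10 counts or more, leaving out libraries under 100000 counts. Ratios to miR-322-5p were tested by permuting days over libraries. Figures were drawn with matplotlib 3.10.9 in Python 3.11.15. The tests were tried on simulated counts first.

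Alternatives were DESeq2 1.42.0, library size as the only scaling, no expression filter, a replicate block, fits of D0 and 1 other day alone, a pseudocount of 5, a minimum of 50 counts per arm, and each library left out in turn. Other TMM references and a fit of FBs and HCs alone were chosen after seeing the data. The study set aside 1 replicate of EC D28, FB D0 and HC D0 without naming them, and all 96 libraries were kept here. No 2 libraries held identical values, and over the 144 pairs of replicates the smallest chi-square per degree of freedom was 7.68, so no library was counted as a repeat.

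The members, gene lists and tests were chosen with earlier results of these data known. Every member is named, and its values per library are given in a cell type where it averaged at least 100 CPM or passed the 6-day test. The other arms of the cluster, 5 relatives by the seed of miR-322-5p, 2 by that of miR-351-5p and the 5 miRNAs most alike over group means were also named. Red blood cell markers (miR-451a, miR-144-3p and miR-486a-5p) were listed as well.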

Additional observations from a re-analysis of the deposited data

Results flagged for a closer look

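Values per library are log2 of TMM-scaled CPM with a small prior count, and a library is listed here where its distance to the nearest of the other 3 replicates was large against the range of its group (Dixon's criterion). This held for 20 of 214 groups, where chance gives about 1 in 20, or 10.7. In CMs the values were 6.47 for miR-322-5p at D14 (replicate 4, high), 1.96 for miR-503-3p at D3 (replicate 1, high), 3.64 for miR-351-5p at D14 (replicate 3, low) and 6.52 for miR-450a-5p at D0 (replicate 1, high). In ECs miR-322-5p was low at 7.62 in D0 replicate 2 and at 6.60 in D14 replicate 4, where miR-351-5p was high at 10.32. EC D14 replicate 4 was thus apart in opposite directions for these members, and its miR-322 arm ratio was low at -2.41 (log2).

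In FBs, D7 replicate 4 was high for miR-322-5p (6.30) and miR-450a-5p (8.43), D1 replicate 2 low for miR-503-3p (2.97) and D28 replicate 4 high for miR-351-5p (7.18). In HCs, D14 replicate 4 was high for miR-322-3p (8.02) and miR-351-5p (8.29). HC D0 replicate 3, with 18286 counts, was low for miR-503-5p (4.66, from 0 counts) and high for miR-542-3p (7.83, from 4 counts). Arm ratios of miR-503 stood apart in EC D0 replicate 2 (1.10, low), FB D0 replicate 2 (-0.25, low) and HC D28 replicate 4 (2.41, high), and the miR-322 ratio of HC D28 replicate 4 was high at 0.0072.

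The change against D0 differed between FBs and HCs by an interaction contrast in edgeR. The differences, FB minus HC, at D1 were 1.14 for miR-322-3p and 1.23 for miR-351-5p. At D3 they were 2.03 for miR-322-3p, 1.60 for miR-351-5p and 1.78 for miR-503-3p. At D7 they were 1.91 for miR-322-3p, 1.88 for miR-351-5p, 1.21 for miR-450a-5p, 2.43 for miR-542-5p, 1.20 for miR-542-3p, 1.38 for miR-503-5p and 1.86 for miR-503-3p. At D14 they were 1.5 for miR-322-3p, 1.68 for miR-351-5p, 3.00 for miR-542-5p and 1.38 for miR-503-3p.

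The F statistic of cell type by day over the 4 cell types was 5.36 for miR-322-5p, 5.96 for miR-322-3p, 5.69 for miR-351-5p, 2.60 for miR-450a-5p, 2.41 for miR-542-5p, 4.17 for miR-542-3p, 5.82 for miR-503-5p and 4.10 for miR-503-3p. All 8 passed, and they passed in each fit that left out 1 of the 96 libraries.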

How the results depend on the processing

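Of 131 called results of members, 98 kept their call in every fit that left out 1 library, and none changed direction there. Library size as the only scaling raised the rises in CMs from 11 to 37, took the falls there from 2 to 0 and the members changed over the 6 days from 4 to 8. It gave 7 rises and 9 falls in HCs in place of 2 and 17, 4 members highest in ECs in place of 7, and 10 FB-above-HC differences in place of 16. It turned miR-503-3p in CMs to 1.11 at D14 and 0.64 at D28, and FBs minus CMs to 0.11 for miR-322-5p, 0.92 for miR-503-5p, 1.04 for miR-542-3p, 0.48 for miR-542-5p and 1.24 for miR-450a-5p, and HCs minus CMs to 1.26 for miR-542-5p. Without a filter on low counts there were 0 falls in CMs, 0 rises in ECs and 1 rise in HCs. DESeq2 gave 2 falls in ECs in place of 1, 4 rises in HCs in place of 2 and 1 FB-below-HC difference in place of 0. Fits of D0 and 1 other day gave 1 fall in CMs and 3 in ECs, and another TMM reference gave 2 falls in ECs. With a mean of at least 50 counts per arm, 1 arm ratio changed in CMs in place of 2, because miR-503 was no longer tested. The cause of the other changes was not tested.

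Within a cell type, deviations of same-numbered libraries from their day means correlated with medians of -0.04 to 0.09. Single pairs in CMs ran from -0.62 to 0.72. Neither the labels nor the study's methods say which animals a number stands for, so it was treated as a number only. With the replicate block, 2 members changed over the 6 days in CMs in place of 4, and no other count of calls moved by over 1.5 times.

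With 1 library left out, CMs had 8 to 22 rises (22 without CM D0 replicate 1), 0 to 4 falls and 2 to 6 members changed over the 6 days. ECs had 2 to 4 rises (2 without EC D0 replicate 2) and 1 to 2 falls. HCs had 2 to 5 rises and 11 to 18 falls (11 without HC D0 replicate 4). FBs had 8 to 14 rises and 0 falls. FB-above-HC differences numbered 9 to 17, moving most without FB D0 replicate 3, FB D7 replicate 4 or HC D0 replicate 4, and FB-below-HC differences 0 to 1. Depth limits miR-542-5p everywhere and miR-503 in CMs at D0.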

Other observations

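On library size alone, red blood cell markers (miR-451a, miR-144-3p and miR-486a-5p) summed to group medians between 335 CPM in HCs at D7 and 2933 CPM in CMs at D14, and mural cell markers (miR-143-3p and miR-145a-5p) between 5681 CPM in HCs at D3 and 62004 CPM in ECs at D0. On the TMM scale of the CM libraries the medians at D0 and D14 were 5597 and 1494 CPM for the red blood cell markers and 93684 and 8319 CPM for the mural markers, so the place of CMs among these groups depends on the scale. The red blood cell sum in CMs was mostly miR-486a-5p. On the scale common to the 96 libraries it averaged 5975 CPM in CMs, against 22.0 for miR-451a and 3.71 for miR-144-3p. Both miR-451a and miR-144-3p averaged lower in CMs than in any other cell type. Taken one by one at D14 in CMs, 2 of the 3 red blood cell markers were higher and 1 lower by edgeR's test. The part of these markers in the members' changes was not tested.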
